A study of Mus musculus with 3 samples.

Results

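Foxp3, Ikzf2, Ikzf4, Nrp1, Gpr83, Lrrc32, Itgae and Izumo1r, 8 genes that are used as markers of regulatory T cells, were followed in activated mouse CD4 T cells kept in 3 media. They are 8 of the 23282 rows of the expression tables and were taken by gene symbol. All 8 also lay among the 12770 rows that passed the filter on low values. The list was selected on results of these same libraries, above all on the log2 difference between dialyzed and complete medium. Values against complete medium, and calls counted from them, are therefore a description and no test of these genes. Comparing dialyzed medium with and without methionine reuses the same dialyzed medium libraries. Its p-values are therefore no independent test of these genes either.

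The cells were taken from C57BL/6 mice, out of the spleen and lymph nodes, and were activated in culture with antibodies against CD3 and CD28, each at 2 µg/ml, for 72 h. Complete medium (CM) was RPMI-1640 with 10% serum. Dialyzed medium (DM) was RPMI without amino acids, with dialyzed serum. The study measured methionine in DM and reports that some was still present. The medium written DM+Met was DM to which 30 µM methionine had been added. Each medium had 2 libraries, numbered 1 and 2, which the labels place under 1 sample each. The study describes biologically independent samples, while the labels name no separate mice or cultures, so p-values measure the spread between these libraries. The labels name no step that parted regulatory from conventional CD4 T cells. In bulk RNA, fewer cells of a type and less RNA per cell cannot be told apart, and this holds for every gene here.

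Regulatory T cells are CD4 T cells that restrain other immune cells, and the transcription factor Foxp3 is needed for their development and function. Ikzf2 (Helios) and Ikzf4 (Eos) are zinc finger factors of the Ikaros family, and Eos is a partner of Foxp3 in repressing genes. The surface proteins on the list are Nrp1, a receptor for semaphorins and vascular endothelial growth factor; Gpr83, a G protein-coupled receptor; Lrrc32 (GARP), which holds latent TGF-β on the cell surface; Itgae (CD103), an integrin chain that pairs with Itgb7; and Izumo1r (folate receptor 4). None of them is restricted to regulatory T cells: activated conventional T cells can also make several of these proteins, and folate receptor 4 is used, with CD73, as a marker of anergic CD4 T cells.

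On the mouse assembly GRCm38 (mm10) with GENCODE release M21, Foxp3 lies at chrX:7573644-7595245, Ikzf2 at chr1:69531214-69687245, Ikzf4 at chr10:128630843-128645991, Nrp1 at chr8:128358604-128503363, Lrrc32 at chr7:98489283-98502181 and Itgae at chr11:73090583-73147446. Gpr83 at chr9:14860210-14870789 and Izumo1r at chr9:14885814-14903949 are neighbours on opposite strands, 15024 bases apart, with 0 annotated genes between them. RefSeq promoter sequences (GRCm38.p6) matched 4 of the 8 genes, with a pair of entries for Foxp3. The 250 bases before the RefSeq start of an entry are shown, 5′ to 3′ on the gene's strand. They are given for Gpr83 and Nrp1, whose levels moved together most closely, and for Izumo1r, the neighbour of Gpr83. The second Foxp3 entry is shown because it alone of the promoters held more than 1 of the motifs searched. By the GENCODE positions above, the Nrp1 and Foxp3 windows lie inside the gene and the Izumo1r window partly inside. Only the Gpr83 window lies wholly before its gene. Capitals mark motif matches.
Gpr83, chr9:14859960-14860209, plus strand: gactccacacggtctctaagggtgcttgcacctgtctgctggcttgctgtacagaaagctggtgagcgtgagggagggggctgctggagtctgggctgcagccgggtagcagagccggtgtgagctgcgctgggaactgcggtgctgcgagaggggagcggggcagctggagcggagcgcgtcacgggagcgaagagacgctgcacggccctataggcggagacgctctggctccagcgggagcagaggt
Nrp1, chr8:128358823-128359072, plus strand: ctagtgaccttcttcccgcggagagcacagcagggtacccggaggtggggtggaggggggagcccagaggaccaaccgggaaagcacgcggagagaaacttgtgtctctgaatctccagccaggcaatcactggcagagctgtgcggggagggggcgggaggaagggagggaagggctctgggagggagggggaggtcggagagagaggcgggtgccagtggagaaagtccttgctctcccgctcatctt
Izumo1r, chr9:14903768-14904017, minus strand: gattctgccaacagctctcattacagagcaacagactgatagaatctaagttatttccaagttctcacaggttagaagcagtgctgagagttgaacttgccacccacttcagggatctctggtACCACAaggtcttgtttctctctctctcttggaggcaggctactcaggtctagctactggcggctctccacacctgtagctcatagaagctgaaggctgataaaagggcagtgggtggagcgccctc
Foxp3, chrX:7580233-7580482, plus strand: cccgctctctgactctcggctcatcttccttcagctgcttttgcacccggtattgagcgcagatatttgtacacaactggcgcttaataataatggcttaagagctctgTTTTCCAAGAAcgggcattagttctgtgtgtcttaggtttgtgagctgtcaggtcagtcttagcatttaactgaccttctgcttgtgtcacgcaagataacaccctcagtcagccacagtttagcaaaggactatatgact

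The promoters of Gpr83 and Nrp1 were rich in G and C (66.8% and 64.4%). The median over 32851 mouse promoters was 52.4%. Izumo1r and the second Foxp3 entry had less (50% and 46%), and the first Foxp3 entry had 37.6%. On both strands these motifs were searched: the STAT5-type GAS site TTCNNNGAA, held by 7.02% of all promoters of this length, the forkhead site TGTTTAC (3.17%), AP-1 TGANTCA (6.75%), CRE TGACGTCA (1.55%), a C/EBP-ATF composite TGATGNAA (3.45%), RUNX TGTGGT (14%) and NFAT GGAAAA (20.4%). In the capitals of the second Foxp3 entry, a GAS match and an NFAT match, read on the minus strand, overlap, 139 and 141 bases before its RefSeq start. The first Foxp3 entry, at chrX:7579426-7579675, held none of the motifs. The bases just after its start were found in 6 Foxp3 transcripts, and those of the second entry in 1. The Izumo1r promoter held a RUNX match on the minus strand, 127 bases before the start. The Gpr83 and Nrp1 promoters held none of the motifs, which says only that these letters are not in this window.

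The 6 libraries held 8504742 to 12377285 reads, made with a kit that sequences the 3′ ends of transcripts. The values are log2(CPM + 1), where CPM is a gene's read count brought to a common library size, with TMM scaling. Reads were recovered from the equal steps of the values. One ribosomal RNA row, Rn45s, took 31.0% to 38.3% of the reads in CM and DM but 15.5% and 20.1% in DM+Met. The T cell marker Cd3e had 690 to 1801 reads per library and Cd4 1584 to 3312. Over 8 T cell markers the summed level was 1650 to 1930 CPM. Cd8a and Cd8b1 together had 66.4 and 74.2 CPM in CM and 23.4 to 34.2 CPM in the other 4 libraries. Summed levels over 6 B cell markers were 58.8 to 95.3 CPM with Pax5 at 0, and over 10 myeloid markers 63.4 to 136 CPM. Over 10 dendritic cell markers they were 247 to 432 CPM, mostly from H2-Aa, H2-Ab1 and Cd74, with Clec9a at 0. Over 4 NK cell markers they were 0 to 6.38 CPM, and over 6 endothelial and stromal markers 25.4 to 80.4 CPM, nearly all from Pecam1. The part of these other cells, and of Rn45s, in the results below was not tested.

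**Figure D1:**
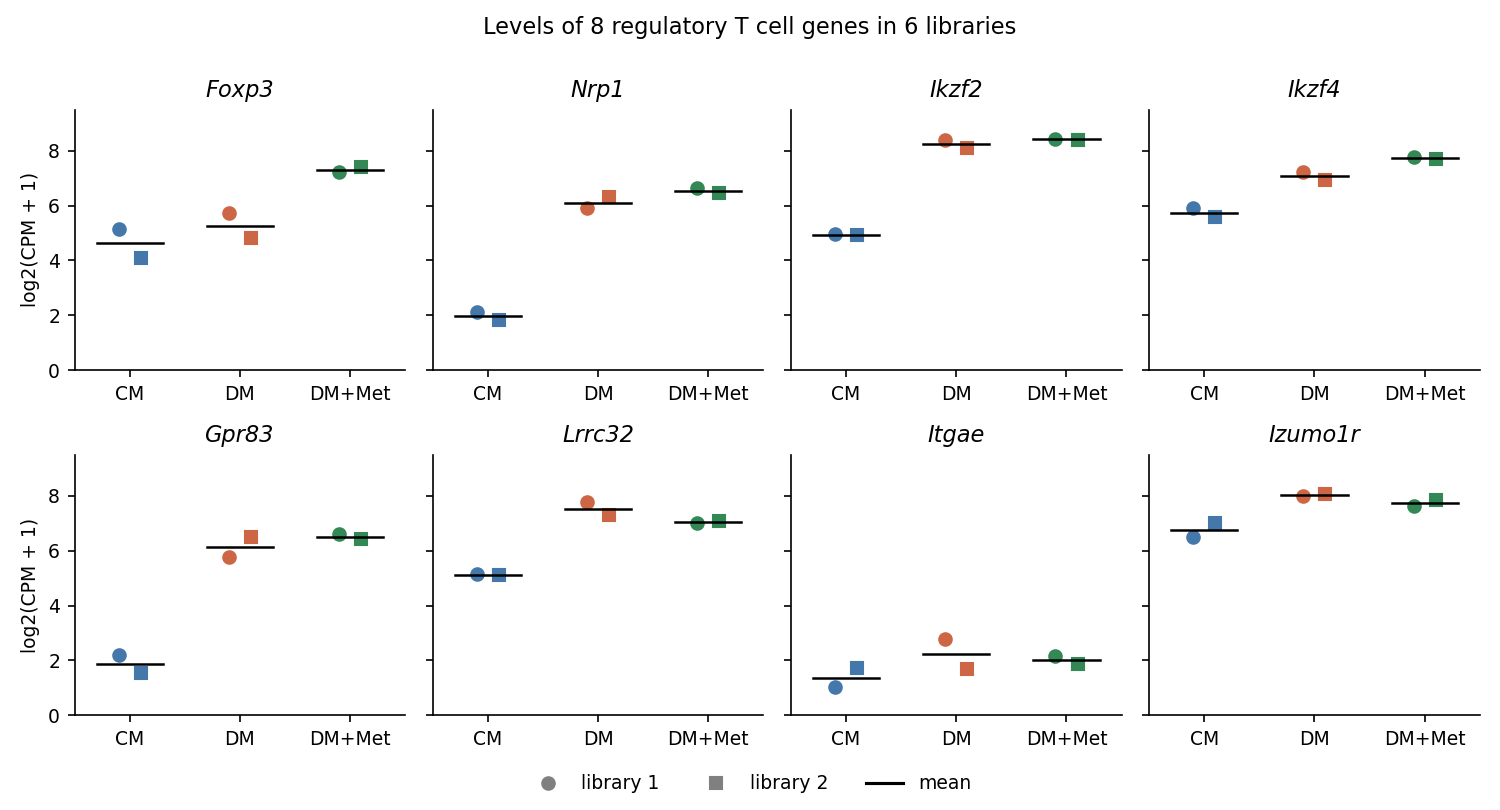
Levels of the 8 genes in log2(CPM + 1) on the vertical axis, by medium on the horizontal axis; circles and squares are libraries 1 and 2 and the line is their mean. Nrp1, Gpr83 and Ikzf2 were low in CM and high in both dialyzed media, whereas Foxp3 was high in the 2 DM+Met libraries only.

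Foxp3 was highest in dialyzed medium with methionine. The CM libraries held 305 and 126 of its reads, the DM libraries 505 and 306, and the DM+Met libraries 1755 and 2006. On the log2 scale these were levels of 5.16 and 4.10, 5.71 and 4.81, and 7.21 and 7.41. CM and DM overlapped, and both DM+Met libraries lay above the other 4. The difference of DM from CM was 0.63 (SE 0.38), and it was 0.10 without CM library 2, 0.18 without DM library 1, 1.16 without CM library 1 and 1.09 without DM library 2. DM+Met was higher than DM by 2.05 (SE 0.38, 4.13-fold), the 25th greatest increase of the 12770 rows, but this did not pass the adjustment over all rows (limma adjusted p = 0.158). The call depended on the processing. It passed with library totals in place of TMM (2.41, limma adjusted p = 0.0320), a setting that also raised the median difference of all rows to 0.34. It also passed with at least 10 reads in every library (limma adjusted p = 0.0227) and with limma-voom on the reads (2.10, adjusted p = 0.0129). All rows called rose in these settings too, from 7 to 55, 27 and 21. The Foxp3 difference did not pass with totals without Rn45s (2.02, limma adjusted p = 0.181) or in any other alternative.

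The Foxp3 row cannot be read as Foxp3 alone. Ccdc22, a gene of endosomal protein sorting on the opposite strand at chrX:7593809-7605517, runs into the 3′ end of Foxp3, and they share 1437 bases, 590 of them exon to exon. The last 300 bases of Ccdc22 lie wholly within Foxp3 exons, and 96 of the last 300 bases of Foxp3 lie within Ccdc22 exons. Reads of this kit fall near those ends, and whether they were counted by strand is not given in the sources used here, so reads of the 2 genes cannot be told apart. Ccdc22 was the row whose pattern was most like that of Foxp3 over the 6 libraries (Pearson r = 0.994 among 6153 rows with a mean level of at least 4).

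Reads of Ccdc22 numbered 275 and 87 under CM, 355 and 197 under DM, and 1329 and 1501 under DM+Met. It thus followed Foxp3 in every library, at 0.644 to 0.902 reads for each Foxp3 read. Its difference of DM+Met from DM was 2.19 (SE 0.46, limma adjusted p = 0.193). Foxp3 had more reads than Ccdc22 in all 6 libraries. The excess was 30 and 39 reads under CM, 150 and 109 under DM, and 426 and 505 under DM+Met, or 3.42 and 5, 15.3 and 9.62, and 35.7 and 42.4 CPM. This excess did not overlap between any pair of media, but it is not a count of reads from Foxp3 alone. Foxp3 also shares 853 exonic bases with Flicr, on its own strand, and 373 with Gm36995, on the other, neither of which is a row of the tables. Ppp1r3f shares 266 exonic bases at the 5′ end and had 2 to 102 reads.

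**Figure D2:**
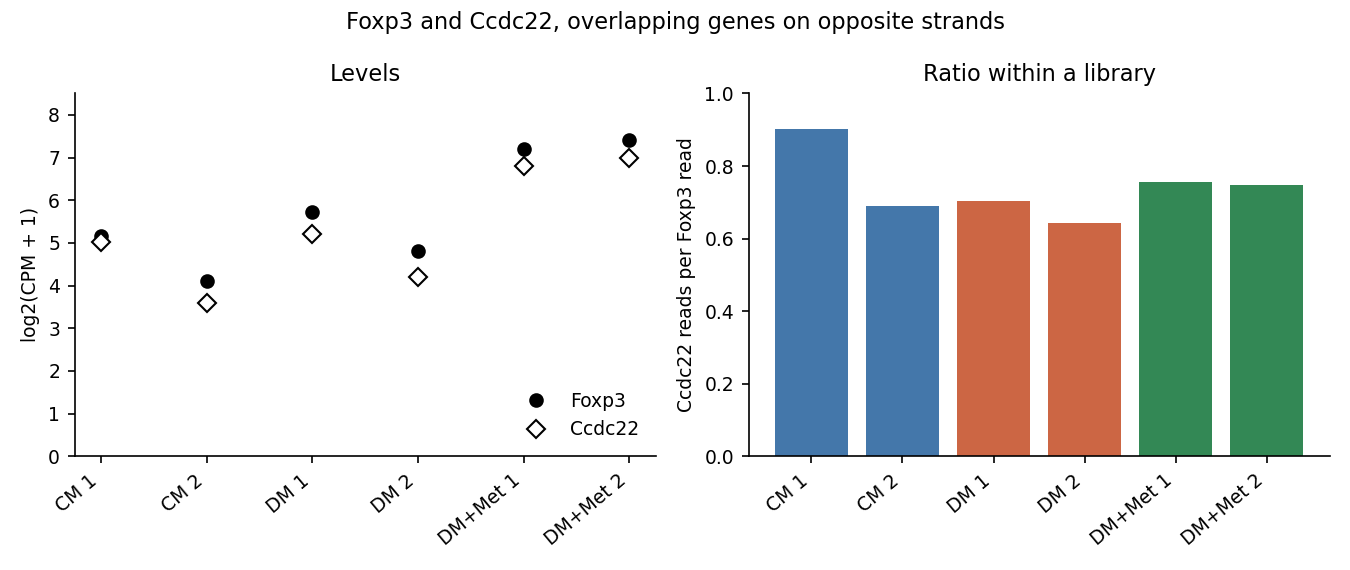
Left, levels of Foxp3 (filled circles) and Ccdc22 (open diamonds) in log2(CPM + 1) for each of the 6 libraries. Right, Ccdc22 reads per Foxp3 read in the same libraries, coloured by medium; the ratio stayed between 0.644 and 0.902 while both levels were highest in DM+Met.

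Helios and Eos, the Ikaros family factors, were both higher in the dialyzed media. Ikzf2 stood at 4.97 and 4.91 under CM, 8.40 and 8.11 under DM, and 8.43 and 8.41 under DM+Met, from 267 and 227, 3296 and 3122, and 4115 and 4033 reads. CM lay far below the other media, which were nearly level. Ikzf2 was 9.94-fold higher in DM than in CM (3.31 on the log2 scale, SE 0.17) and 11.2-fold higher in DM+Met (3.48, SE 0.17). DM+Met lay above DM without overlap but by 0.17 (SE 0.17, limma adjusted p = 0.821), or 0.02 without DM library 2. An antisense gene that is not a row of the tables, Gm29114, shares 144 exonic bases with Ikzf2.

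Ikzf4 was lowest in CM and highest in DM+Met, without overlap. The CM libraries gave levels of 5.92 and 5.57, the DM libraries 7.22 and 6.93, and the DM+Met libraries 7.78 and 7.69, with 364 to 2620 reads. It was 2.51-fold higher in DM than in CM (1.33, SE 0.20) and 3.97-fold higher in DM+Met (1.99, SE 0.20). The step from DM to DM+Met was 0.66 (SE 0.20) and did not pass over all rows (limma adjusted p = 0.348).

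The receptors Nrp1 and Gpr83 showed the greatest differences on the list and had nearly the same profile. The CM libraries held 29 and 20 Nrp1 reads, the DM libraries 583 and 880, and the DM+Met libraries 1176 and 1031. Gpr83 had 31 and 15, 523 and 1028, and 1157 and 1012 reads in the same order. In both genes the CM libraries held few reads, and no library of another medium came near them. Log2 levels were 2.11 and 1.83, 5.92 and 6.30, and 6.64 and 6.45 for Nrp1. For Gpr83 they were 2.18 and 1.55, 5.76 and 6.52, and 6.61 and 6.43. Nrp1 was higher in DM than in CM by 4.14 (SE 0.30, 17.6-fold) and Gpr83 by 4.28 (SE 0.36, 19.4-fold), ranking 9th and 5th among the 12770 rows by increase. With so few reads in CM, these sizes depend on the pseudocount: with 5 CPM in place of 1 they were 3.20 and 3.28, and with limma-voom on the reads 4.52 and 4.70.

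Both receptors were also high with methionine. DM+Met exceeded DM by 0.44 for Nrp1 (SE 0.30, limma adjusted p = 0.691), with no overlap of the libraries. For Gpr83 the difference was 0.38 (SE 0.36, limma adjusted p = 0.802), the libraries overlapped, and without DM library 1 it was −0.00. Against CM, DM+Met was 23.9-fold higher for Nrp1 (4.58, SE 0.30) and 25.2-fold higher for Gpr83 (4.66, SE 0.36), or 3.62 and 3.64 on the log2 scale with a pseudocount of 5 CPM. Izumo1r, next to Gpr83 on chromosome 9, had smaller differences.

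Lrrc32 and Izumo1r were highest in DM. Lrrc32 stood at 5.14 and 5.12 under CM, 7.76 and 7.32 under DM, and 7.03 and 7.09 under DM+Met, from 264 to 2119 reads. It was 5.32-fold higher in DM than in CM (2.41, SE 0.20) and 3.81-fold higher in DM+Met (1.93, SE 0.20). DM+Met lay below DM without overlap, by −0.48 (SE 0.20, limma adjusted p = 0.483). This was −0.12 with library totals, −0.26 without DM library 1 and −0.70 without DM library 2.

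For Izumo1r the CM libraries gave levels of 6.50 and 7.01, the DM libraries 8.01 and 8.05, and the DM+Met libraries 7.62 and 7.84, from 788 to 2999 reads. No media overlapped, with CM lowest and DM highest. It was 2.42-fold higher in DM than in CM (1.27, SE 0.20) and 1.96-fold higher in DM+Met (0.97, SE 0.20). The difference of DM+Met from DM was −0.30 (SE 0.20, limma adjusted p = 0.672) and turned to 0.06 when libraries were scaled by their totals. Its calls against CM were the least stable on the list. That for DM was lost without either DM library (1.30 and 1.25) and without an intensity trend, and that for DM+Met was lost in 7 of 17 alternatives, among them without CM library 1 (0.72) and without either DM or DM+Met library (0.86 to 1.08).

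Itgae was barely detected. Its reads numbered 9 and 18 under CM, 58 and 25 under DM, and 42 and 32 under DM+Met. The levels, 1.02 and 1.73, 2.79 and 1.68, and 2.18 and 1.88, overlapped between DM and CM and between DM+Met and DM. Differences were 0.86 (SE 0.62) for DM against CM and −0.21 (SE 0.62, limma adjusted p = 0.957) for DM+Met against DM. The second became 0.35 without DM library 1 and 0.07 with library totals, so no direction between DM+Met and DM was detectable at this depth. The first stayed above 0 in the 16 alternatives run, from 0.31 without DM library 1 to 1.42 without DM library 2. These reuse the same overlapping libraries, so no direction is read from them. Itgb7, its partner chain, had 826 to 1866 reads and a difference of 0.45 between DM and CM (SE 0.21, limma adjusted p = 0.170).

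**Figure D3:**
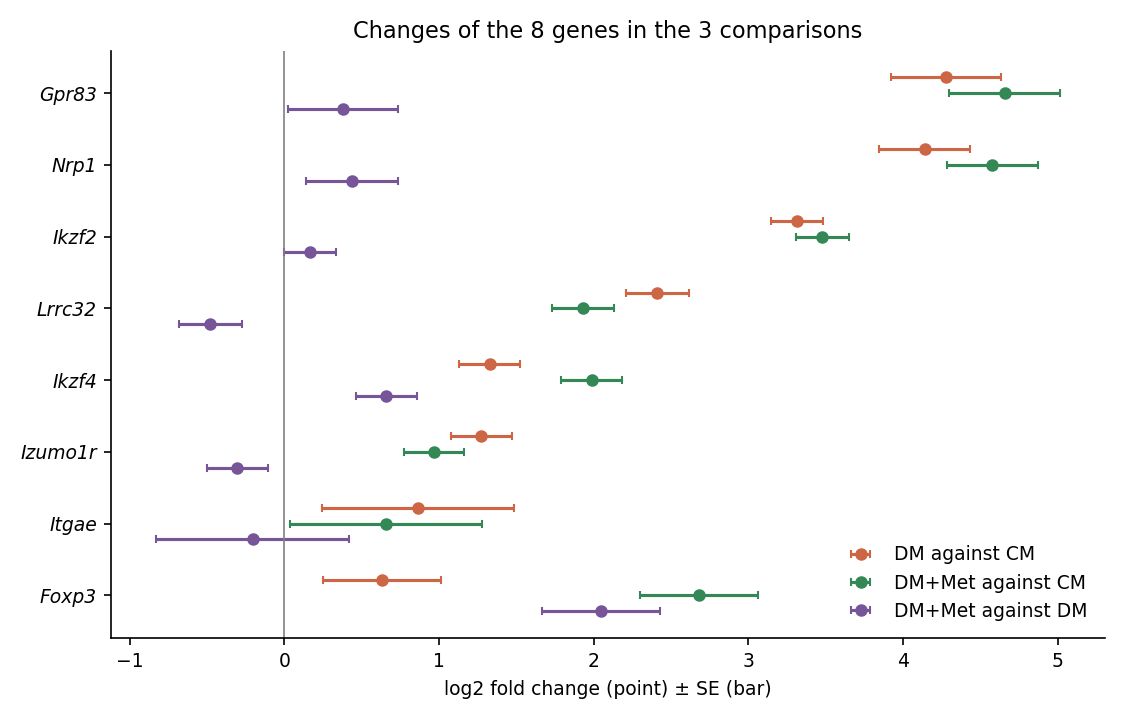
Log2 fold change on the horizontal axis for the 8 genes in the 3 comparisons; points are differences of medium means and bars are 1 SE from the shared fit. Differences from CM of Gpr83, Nrp1 and Ikzf2 lie above 3 in both dialyzed media, and Foxp3 has the greatest difference between DM+Met and DM (2.05).

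Taking the list as a whole, 6 of the 8 genes were called higher in DM than in CM at an adjusted p under 0.05 and 0 were called lower. Those not called were Foxp3 and Itgae. Among all 12770 rows, 7.8% were called higher and 9.07% lower, and since this contrast was known when the genes were picked, nothing is read from the comparison. In the same 6 genes the libraries did not overlap, with DM above CM, as in 27.9% of all rows (26.2% lay below). The median difference was 1.87, against 0.07 over all rows. Leaving out any 1 library gave 5 or 6 called genes.

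With methionine added to DM, 0 of the 8 genes were called by limma at an adjusted p under 0.05 (7 of all rows were, 0.0392% higher and 0.0157% lower). The DM libraries also entered the difference by which the genes were picked, so this is no independent test. At an unadjusted p under 0.05 there were 3 of the 8 genes, Foxp3, Ikzf4 and Lrrc32, and 1238 of all rows. With limma-voom 1 was called, Foxp3 (21 of all rows). Higher in DM+Met without overlap were 4 genes (Foxp3, Nrp1, Ikzf2 and Ikzf4; 20.4% of all rows did), 2 lay lower (Lrrc32 and Izumo1r; 20.6% of all rows), and Gpr83 and Itgae overlapped. The median difference was 0.27, against 0.01 over all rows. Scaling by library totals raised the median of all rows to 0.34 in this comparison, while totals without Rn45s gave −0.02. Under library totals the differences of Ikzf4, Nrp1 and Ikzf2 were 1.02, 0.80 and 0.53, none of them called.

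Against CM, DM+Met had 7 of the 8 genes called higher and 0 lower (6.92% and 8.36% of all rows). The exception was Itgae. All 8 lay above CM without overlap, as did 32.2% of all rows, while 28.7% lay below. This comparison shares the CM libraries with the one above and adds no independent check. The median difference was 2.33, against 0.06 over all rows. The Foxp3 call, at 2.68 (SE 0.38, 6.40-fold), was lost without either DM+Met library (2.58 and 2.78).

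**Figure D4:**
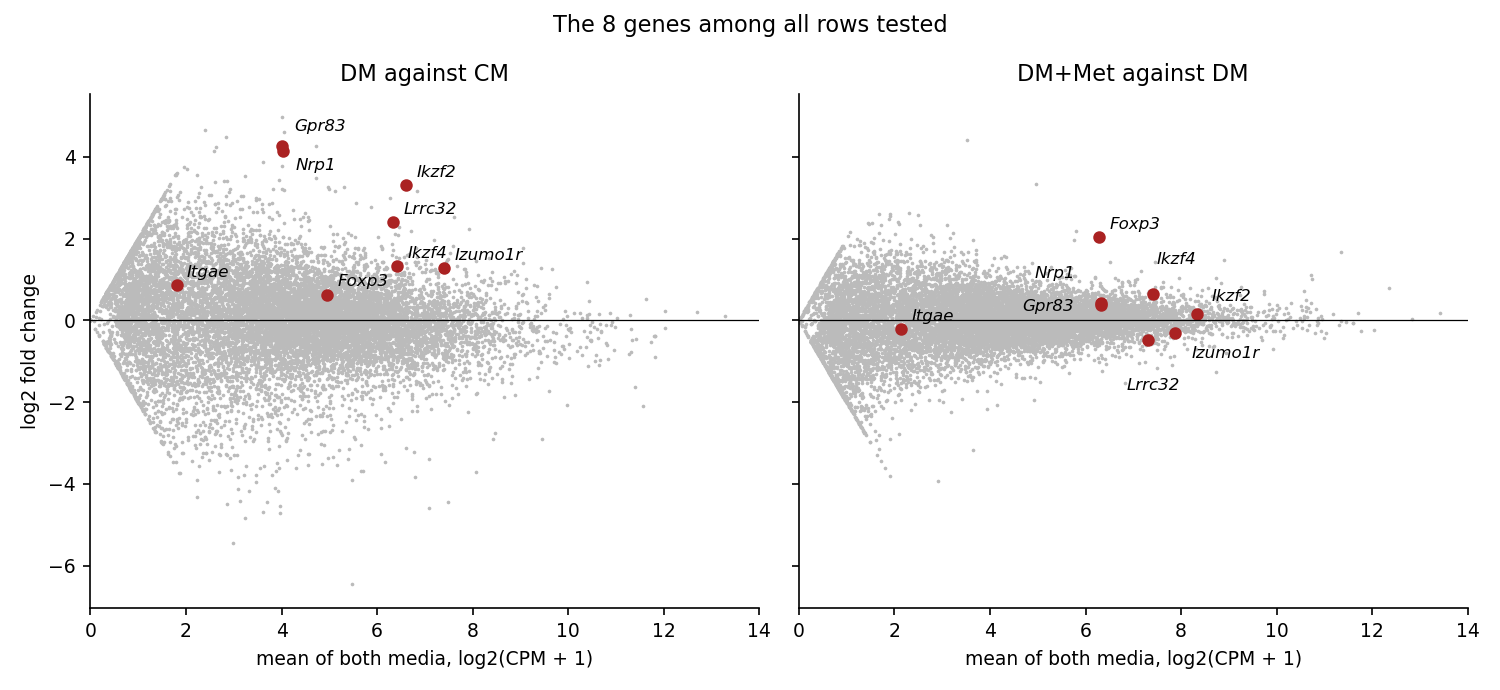
Each grey point is 1 of the 12770 rows tested, with the mean level of both media in log2(CPM + 1) on the horizontal axis and the log2 fold change on the vertical axis; the 8 genes are in red. In DM against CM, Gpr83 and Nrp1 lie at the upper edge of the cloud, and in DM+Met against DM Foxp3, at 2.05, lies furthest from 0 of the 8.

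The genes did not keep fixed proportions to each other. Read for read within a library, all of the other 7 genes were lower relative to Foxp3 in DM+Met than in DM, without overlap. For each Foxp3 read there were 6.53 and 10.2 Ikzf2 reads under DM and 2.34 and 2.01 under DM+Met, beside 0.875 and 1.80 under CM. For Lrrc32 the ratios were 4.20 and 5.88 under DM and 0.881 and 0.804 under DM+Met. These ratios carry the overlap of Foxp3 with Ccdc22 described above.

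Relative to the T cell marker Cd3e the picture was similar for the greatest differences. For each Cd3e read there were 0.376 and 0.183 Foxp3 reads under CM, 0.280 and 0.304 under DM, and 1.04 and 1.13 under DM+Met. Ikzf2 had 0.329 and 0.329, 1.83 and 3.10, and 2.43 and 2.28. Both showed no overlap between CM and DM+Met, and only Ikzf2 did so between CM and DM. Izumo1r was different: at 0.972 and 1.45, 1.40 and 2.98, and 1.38 and 1.53 reads per Cd3e read, the media overlapped. Per Cd4 read it did not overlap, at 0.458 and 0.563 under CM, 1.59 and 1.47 under DM, and 0.827 and 0.819 under DM+Met. Cd3e itself differed between the DM libraries (1801 and 1006 reads).

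Across the 6 libraries, which share 3 media and so are not independent points, Pearson correlations of log2 levels between genes of the list were lowest for Itgae with Foxp3 (0.35) and highest for Gpr83 with Nrp1, followed by Ikzf2 with Nrp1 (0.99) and Gpr83 with Ikzf2 (0.98). Foxp3 was less close, at 0.35 to 0.87 with the others and closest to Ikzf4. Beyond the list, the rows most like each gene over the 6 libraries were Rprd2 and Mndal for Nrp1, Gt(ROSA)26Sor and Tnf for Ikzf2, Krr1 and Ppp2r5a for Ikzf4, Gpatch8 and Mycbp2 for Gpr83, Ing5 and Ikbke for Lrrc32, and Gimap3 and Notch1 for Izumo1r, with r from 0.9955 to 0.9998. For Foxp3 they were Ccdc22 and Syngr2 (0.986). Likeness of profile was not likeness of size: Gpatch8, closest to Gpr83, had levels of 6.04 and 5.94 in CM and 6.65 and 6.78 in DM.

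Other genes, on lists drawn up around regulatory T cells and related receptors and partners, moved in both directions. Not all of them are regulatory T cell genes. Of the 115 genes on these 6 lists, 104 passed the filter. Between DM and CM 28 were called higher, 15 lower and 61 were not called. Their median difference was 0.35 (0.07 over all rows, of which 7.8% were called higher and 9.07% lower). The lists were chosen with results known, so nothing is read from that difference in share, here or for the single lists below. Adjusted p-values of single list genes between DM and CM were taken over all rows. For the same reason they describe these libraries and are no independent test of the genes. Calls fell without any 1 library, for these genes and for all rows alike: from 43 of these genes and 2154 of all rows to 19 and 541 without CM library 1, 26 and 859 without CM library 2, 28 and 911 without DM library 1, and 25 and 1061 without DM library 2. Leaving out DM+Met library 1 gave 23 and 775, and DM+Met library 2 gave 23 and 762.

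Among 30 surface and effector genes, 6 were called higher and 4 lower (7.8% and 9.07% of all rows). The lower ones were genes of suppressive or cytotoxic function. Ctla4, the inhibitory receptor that competes with Cd28 for its ligands, was lower, with 3458 and 2943 reads under CM against 1199 and 1851 under DM (−1.44, SE 0.18, limma adjusted p = 0.00105). Il10, a suppressive cytokine, had 372 and 205 reads under CM against 0 and 15 under DM (−4.50, SE 0.71, adjusted p = 0.00328). Gzmb, granzyme B, was lower by −4.58 (SE 0.32, adjusted p = 5.39e-05) and Lag3, a receptor for MHC class II, by −2.10 (SE 0.53, adjusted p = 0.0256). Il2ra, the IL-2 receptor chain CD25 by which regulatory T cells are commonly sorted, had 7263 to 16222 reads and a difference of 0.10 (SE 0.14, adjusted p = 0.645). Tnfrsf18 (GITR) had −0.08 (SE 0.15, adjusted p = 0.757).

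The higher surface genes included Nt5e (CD73), which makes adenosine, with 36 and 45 reads under CM against 215 and 520 under DM (2.48, SE 0.43, limma adjusted p = 0.00476). The chemokine receptor Ccr6 was higher by 1.97 (SE 0.40, adjusted p = 0.0104). On the anergy list of 9 genes, 2 were called higher and 1 lower (7.8% and 9.07% of all rows). The higher were Nt5e and Egr3 (1.64, SE 0.34, adjusted p = 0.0113), the lower Ndrg1 (−1.45, SE 0.18, adjusted p = 0.00109).

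On a list of transcription and chromatin factors, among them regulators of Foxp3 and factors of other T cell lineages, 37 genes were tested. Of these, 13 were called higher and 8 lower (7.8% and 9.07% of all rows). Tet3, a methylcytosine dioxygenase, was higher by 1.60 (SE 0.18, limma adjusted p = 6e-04), as were the transcription factors Runx1 by 1.58 and Tcf7 by 1.60. Tbx21 (T-bet) was lower by −3.27 (SE 0.61, adjusted p = 0.00691) and Uhrf1, which recruits the maintenance DNA methyltransferase, by −1.59. Within the Ikaros family Ikzf1 was higher by 0.85 (SE 0.15, adjusted p = 0.00507) and Ikzf3 lower by −1.53 (SE 0.37, adjusted p = 0.0206), beside the higher Ikzf2 and Ikzf4. Folr1, a folate receptor, had 0 reads in every library.

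On the list around TGF-β, the cytokine that Lrrc32 displays, 18 genes were tested. Of these, 6 were called higher and 1 lower (7.8% and 9.07% of all rows). The receptor genes Tgfbr1 and Tgfbr2 were higher in DM by 1.61 (SE 0.41, limma adjusted p = 0.0263) and 1.56 (SE 0.23, adjusted p = 0.00254), and Skil, a repressor of the pathway, by 1.59. Tgfb3 was the one called lower, with 113 and 237 reads under CM against 0 and 1 under DM. Tgfb1 had few reads, 30 and 28 under CM against 12 and 9 under DM (−1.17, SE 0.60, adjusted p = 0.209).

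Between DM+Met and DM, 0 of these 104 genes were called by limma (7 of all 12770 rows), and 15 had an unadjusted p under 0.05 (1238 of all rows). With limma-voom 0 were called (21 of all rows), and with library totals 1, Socs2 (55 of all rows). As the lists were chosen with results known, nothing is read from these shares. The median difference of these genes was −0.09, against 0.01 over all rows. Ctla4 differed by −0.16 (SE 0.18, limma adjusted p = 0.835), Il10 by 0.87 (SE 0.71, adjusted p = 0.767), Il2ra by 0.30 (SE 0.14, adjusted p = 0.519) and Nt5e by −0.12 (SE 0.43, adjusted p = 0.965). Against CM, DM+Met had 22 genes called higher and 19 lower (6.92% and 8.36% of all rows), 41 in all. Without CM library 1 or 2 these were 18 and 17, and without DM+Met library 1 or 2 they were 10 and 8, while all rows called fell from 1952 to 655, 873, 294 and 268. Ctla4 (−1.60), Il10 (−3.63) and Gzmb (−4.92) were again lower than in CM, and Tgfbr1 (2.55), Nt5e (2.36) and Ccr6 (1.93) higher.

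**Figure D5:**
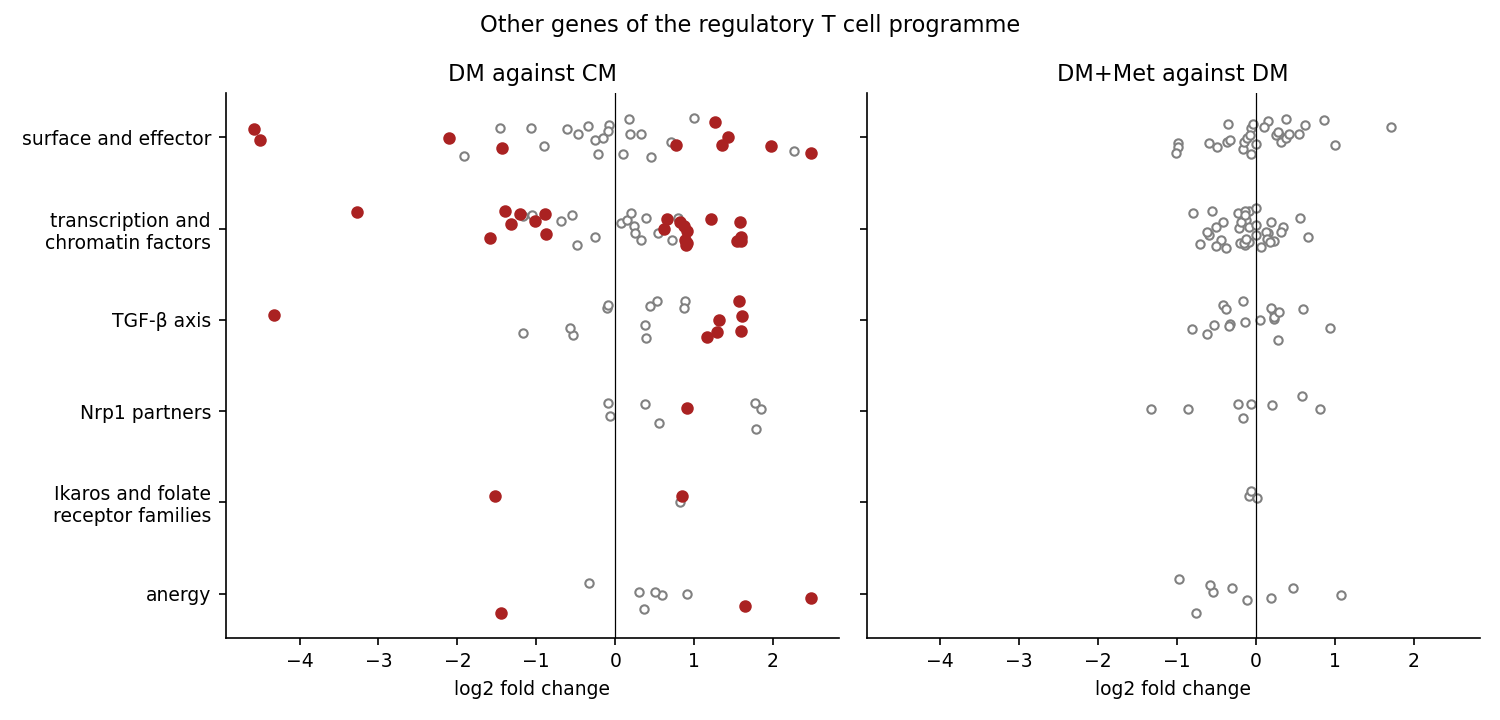
Log2 fold changes (horizontal axis) of the 104 other genes, by list, in DM against CM (left) and DM+Met against DM (right); filled red points passed an adjusted p of 0.05 and open points did not. A gene on 2 lists appears in both, vertical scatter within a list is for display, and no gene is filled on the right.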

How the data were processed

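RNA was sequenced from CD4 T cells in 3 media, with 2 libraries each. Libraries were prepared from 500 ng of RNA with a 3′-end kit, and the submitters' processing notes name Bowtie2, bedtools and mm10. Strand setting, annotation and versions are not given in the sources used here. The authors deposited log2 values, log2(TMM-scaled CPM + 1) to 3 decimals. Each value was turned back to reads by the smallest step of its library, and at least 99.78% of values up to 300 reads came out within 0.1 of a whole number. Rows needed at least 0.946 CPM (10 reads at median depth) in 2 libraries and 15 reads in all. The 3 media were fitted together with limma 3.58.1 (R 4.3.3; lmFit, eBayes with trend), adjusted by the Benjamini-Hochberg method over 12770 rows, and called at an adjusted p under 0.05. With 2 libraries against 2, an exact permutation test cannot go below 0.333. The step was tested on simulated data.

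The genes and all lists were chosen with earlier results of these data known. Named are the 8 genes, at most 8 called list genes in each direction by size, the fixed genes Ctla4, Il2ra, Tnfrsf18, Il10, Tgfb1, Itgb7 and Ikzf1, cell markers, and for each gene with 100 reads on average the 2 rows of highest correlation. Ccdc22, Ppp1r3f, Flicr and Gm36995 (for their overlap), Tgfbr2 and Folr1 were named after their values were seen. Alternatives were library totals, filters, pseudocounts, limma-voom, other priors, 2 media alone, a replicate block and leaving out each library. Library totals without Rn45s were added after seeing the data.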

Additional observations from a re-analysis of the deposited data

How the results depend on the processing

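Of the counts of the 8 genes called, those against CM stayed between 5 and 7 in every alternative. For DM+Met against DM the count rose from 0 to 1, Foxp3, with library totals, with at least 10 reads in every library and with limma-voom. All rows called rose too, from 7 to 55, 27 and 21 in these settings. The count of the 8 genes stayed at 0 with totals without Rn45s. List genes called between DM and CM fell from 43 to 23 without an intensity trend and to 24 with the 2 media alone, where all rows called fell from 2154 to 1329 and 795. Between DM+Met and CM they fell from 41 to 20 without a trend, and all rows from 1952 to 944. Leaving out 1 library gave 19 to 28 and 8 to 35. For DM+Met against DM, library totals gave 1 list gene in place of 0. Small differences between DM+Met and DM changed sign with library totals, Itgae to 0.074 and Izumo1r to 0.059. In that setting the median of all rows rose from 0.009 to 0.338. When 1 library was left out, Itgae changed sign (−0.760 to 0.348, highest without DM library 1). Gpr83 then ranged from −0.00, without DM library 1, to 0.755. The causes were not tested.

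Libraries of the same number did not deviate together (correlations of deviations from −0.03 to 0.005). No pairing by number was seen in the values, and the labels do not state whether the numbers pair the libraries. With the number as a replicate block the calls were 6, 0 and 7 of the 8 genes and 43, 0 and 38 list genes, and the adjusted p of Foxp3 between DM+Met and DM was 0.0613. Libraries of a medium differed by more than sampling noise (chi-square per degree of freedom of 18.2 to 35.9). Itgae, at 9 to 58 reads, is limited by depth.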
